A study of Mus musculus with 6 samples.

Results

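A group of 331 promoter peaks stood higher in distal forelimb buds of Hox13-/- mouse embryos than in those of wild-type embryos, out of 19644 promoter peaks and 61954 accessible regions in all. Accessibility was measured by ATAC-seq, in which a transposase inserts sequencing adapters into open DNA. A promoter peak was a region whose midpoint lay within 1 kb of a transcription start site of the GENCODE mm10 annotation. The members were chosen by their own readout, so that the mean of the Hox13-/- values exceeded the wild-type mean by at least 0.35 rLog and both mutant values lay above both wild-type values. The unit, rLog, is a library-scaled and shrunken log2 read count. Because the rule used the contrast between genotypes, that contrast is given for the members as a description with no test.

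The wild-type group held 2 libraries and the Hox13-/- group 2 libraries, each made from 50000 cells of both distal forelimb buds of 1 embryo at E11.5. The mutants lacked both paralogues of group 13 that act in the limb, through the null alleles Hoxa13 Str and Hoxd13 lacZ. The paper states a mixed C57BL/6 x 129 background for all its mice. For its ChIP-seq it names CD1 embryos as wild type, and it does not name the strain of the ATAC-seq wild-type embryos. Both null alleles are carried in the germ line, so every cell of the mutant buds carried them. The Hoxa13 Str allele lies in the HoxA cluster itself and the Hoxd13 lacZ allele in the HoxD cluster. For peaks of these clusters, the allele in cis and the absence of HOXA13 and HOXD13 protein cannot be told apart. A bud holds mesenchyme, ectoderm, vessels, blood and nerves. In libraries of such mixed cells, a change in the share of a cell type cannot be told apart from a change in accessibility within its cells.

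A promoter is the stretch of DNA around a start site at which RNA polymerase assembles. Most mammalian promoters of widely used genes lie in CpG islands, stretches rich in G, C and unmethylated CpG dinucleotides that are accessible in most cell types, whereas CpG-poor promoters tend to be open in particular tissues or times, as enhancers are. HOXA13 and HOXD13 are homeodomain transcription factors needed for digit formation, and in the distal bud they replace an earlier program run by more anterior Hox genes.

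The sequences of the 6 members with the largest difference, of the 2 with the highest signal, and of 2 CpG-rich members added after their values were seen, are shown for their base composition. Each is the plus strand of GRCm38 (mm10) from RefSeq within 150 bases of the peak midpoint, with bases of annotated untranslated regions left out and each CpG in capitals.
Gm9999, chr7:46987047-46987178: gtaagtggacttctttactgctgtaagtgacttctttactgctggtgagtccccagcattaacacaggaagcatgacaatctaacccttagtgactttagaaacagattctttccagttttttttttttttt
Gm31520, chr6:66282633-66282932: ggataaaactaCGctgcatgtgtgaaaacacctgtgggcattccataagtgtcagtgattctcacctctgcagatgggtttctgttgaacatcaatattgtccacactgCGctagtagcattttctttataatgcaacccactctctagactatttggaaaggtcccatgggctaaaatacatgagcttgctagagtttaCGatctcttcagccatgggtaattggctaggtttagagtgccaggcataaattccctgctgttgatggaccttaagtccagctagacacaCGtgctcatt
Ppm1h, chr10:122894793-122895092: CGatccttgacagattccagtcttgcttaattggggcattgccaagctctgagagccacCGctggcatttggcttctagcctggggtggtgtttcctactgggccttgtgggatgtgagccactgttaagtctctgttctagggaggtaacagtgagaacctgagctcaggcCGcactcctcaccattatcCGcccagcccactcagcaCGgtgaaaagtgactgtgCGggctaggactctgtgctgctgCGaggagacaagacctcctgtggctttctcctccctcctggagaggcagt
Gm44319, chr2:159069285-159069584: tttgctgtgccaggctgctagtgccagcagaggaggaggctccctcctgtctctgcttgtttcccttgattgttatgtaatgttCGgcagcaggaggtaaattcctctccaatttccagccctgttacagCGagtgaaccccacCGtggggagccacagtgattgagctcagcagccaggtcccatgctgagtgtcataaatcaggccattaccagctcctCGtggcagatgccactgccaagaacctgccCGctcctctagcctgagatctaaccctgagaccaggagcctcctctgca
C230053D17Rik, chr9:121319609-121319908: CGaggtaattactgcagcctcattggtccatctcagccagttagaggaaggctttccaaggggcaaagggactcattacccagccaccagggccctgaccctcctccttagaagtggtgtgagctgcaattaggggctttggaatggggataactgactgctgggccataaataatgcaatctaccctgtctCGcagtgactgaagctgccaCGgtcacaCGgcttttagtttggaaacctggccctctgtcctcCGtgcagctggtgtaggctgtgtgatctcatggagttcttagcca
Gm31946, chr13:78427079-78427378: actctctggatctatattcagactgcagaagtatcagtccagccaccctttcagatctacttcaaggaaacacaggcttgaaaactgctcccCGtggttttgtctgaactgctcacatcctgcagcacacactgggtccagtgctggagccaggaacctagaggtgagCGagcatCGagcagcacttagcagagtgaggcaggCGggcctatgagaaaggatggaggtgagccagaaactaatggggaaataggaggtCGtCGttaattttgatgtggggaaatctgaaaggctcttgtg
Lgals12, chr19:7606532-7606730: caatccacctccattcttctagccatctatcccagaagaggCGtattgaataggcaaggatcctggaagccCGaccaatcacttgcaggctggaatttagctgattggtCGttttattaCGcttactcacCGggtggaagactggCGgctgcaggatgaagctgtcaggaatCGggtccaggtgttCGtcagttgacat
Gm44916, chr7:82715734-82716033: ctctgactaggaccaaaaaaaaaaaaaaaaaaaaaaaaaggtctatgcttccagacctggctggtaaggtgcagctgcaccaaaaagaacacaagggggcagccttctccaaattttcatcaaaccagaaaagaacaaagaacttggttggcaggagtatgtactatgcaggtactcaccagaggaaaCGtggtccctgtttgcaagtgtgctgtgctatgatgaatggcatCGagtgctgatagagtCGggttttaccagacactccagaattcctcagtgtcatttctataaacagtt
3110070M22Rik, chr13:119488384-119488530: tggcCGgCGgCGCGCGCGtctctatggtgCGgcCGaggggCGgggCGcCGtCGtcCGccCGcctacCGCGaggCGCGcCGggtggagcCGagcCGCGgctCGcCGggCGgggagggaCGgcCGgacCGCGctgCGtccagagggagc
Hoxd8, chr2:74704426-74704614: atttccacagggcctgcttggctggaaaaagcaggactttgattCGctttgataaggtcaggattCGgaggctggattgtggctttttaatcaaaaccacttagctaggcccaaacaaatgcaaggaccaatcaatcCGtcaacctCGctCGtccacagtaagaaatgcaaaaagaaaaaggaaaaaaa
The 6 windows of the largest differences held between 0 and 7 CpG each, and the 2 of the highest signal held 8 and 3. In contrast, the 147 bases at the divergent start of 3110070M22Rik and Tmem267 held 30. The 189 bases shown at Hoxd8, with untranslated bases left out, held 5 at a GC content of 43.4%, against 58.3% for the whole peak. The label CpG-rich refers to the whole peak.

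Members made up 1.68% of promoter peaks. The mirrored rule, which asks for a difference of at least 0.35 in the other direction, was met by 1252 promoter peaks, or 6.37%. Among the 42310 peaks over 1 kb from a start site the rule for higher peaks was met by 6024, or 14.2%. The limma model fitted to all peaks called 365 promoter peaks higher and 1653 lower at a Benjamini-Hochberg adjusted p under 0.05, and after each library's trend on GC content was taken out the split was 452 higher and 710 lower. When any 1 library was left out, the calls fell to between 231 and 273 higher and between 724 and 1133 lower, with the fewest of both without Hox13-/- replicate 1. All 331 members were among the 365, against a background of 1.86% of promoter peaks. Between 208 and 229 members were called with 1 library left out, and 275 after the GC correction. The same contrast chose them, and the count carries no support of its own.

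The difference of the members ranged from 0.35 to 1.41 rLog with a median of 0.48, whereas the median over the 19313 other promoter peaks was -0.11. Limma put the standard error of a member's difference between 0.116 and 0.131. In wild-type replicate 1 the members ran from 2.97 to 8.29 with a median of 5.24, and in wild-type replicate 2 from 3.02 to 8.27 with a median of 5.26. In the mutants the medians were 5.82 and 5.84, with ranges from 3.49 to 9.02 and from 3.28 to 8.88. The gap between the lower mutant value and the higher wild-type value was 0.35 in the median member and above 0.2 in 290 members, and it was as small as 0.019. For the members, replicates of wild type differed by 0.187 and those of Hox13-/- by 0.183 (root mean square), close to the 0.180 and 0.174 of the other promoter peaks.

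Values on either side of the threshold were alike. Just inside it lay peaks of 1700054K19Rik, Gm37374 and Olfr278-ps1, each with a difference of 0.35. The Olfr278-ps1 peak had wild-type values of 4.05 and 4.09 and mutant values of 4.19 and 4.65, so its mutant replicates were further apart than the genotypes were. Just outside lay peaks of Vsx1, C79798 and Gm47175 with both mutant values on top and differences of 0.349, 0.348 and 0.348. In all, 1969 promoter peaks had both mutant values above both wild-type values, and 1638 of them fell short of the threshold.

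The leading member belonged to Gm9999, a predicted coding gene, at chr7:46986655-46987402. Its wild-type values were 5.72 and 5.63 and its mutant values 7.19 and 6.97, a difference of 1.41. The peak covered an exon, and neither wild-type library had a called peak there.
At Gm31520, a transcribed pseudogene (chr6:66282457-66283108), the wild-type values were 5.96 and 5.75 and the mutant values 7.03 and 7.27. The third member lay at Ppm1h, which encodes a protein phosphatase, within an intron upstream of an internal start (chr10:122894557-122895328). It gave 6.32 and 6.27 in wild type against 7.31 and 7.66 in Hox13-/-, a difference of 1.19. In each of these 3 peaks the lower mutant value stood above the higher wild-type value by more than the replicates of either genotype differed.

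**Figure D1:**
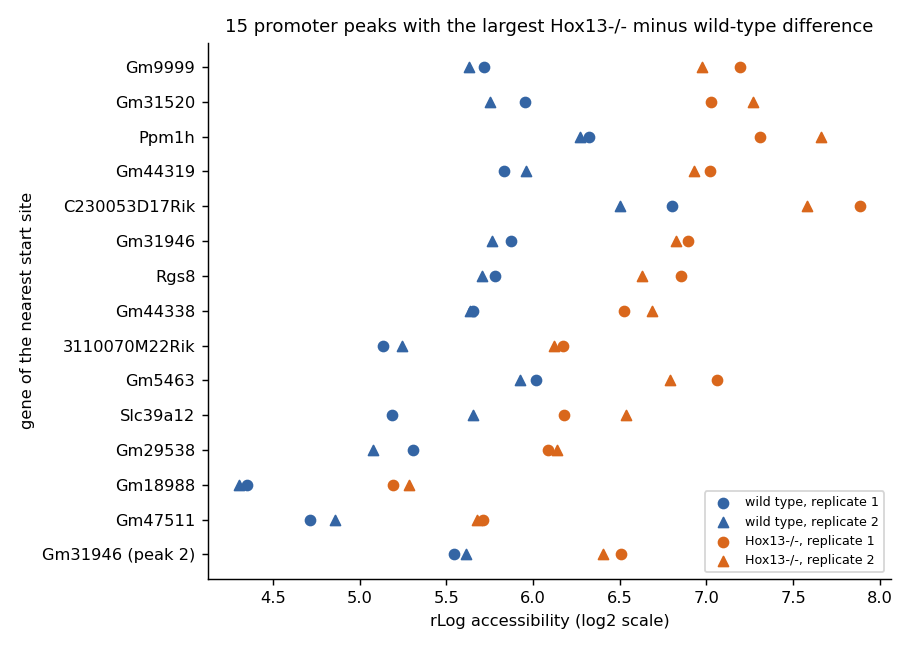
rLog accessibility (horizontal axis, log2 scale) of the 15 promoter peaks with the largest difference, named by the gene of the nearest start site. Circles and triangles are replicates 1 and 2, blue is wild type and orange Hox13-/-. In all 15 rows both orange points lie to the right of both blue points, as the rule requires, and the lowest row shown has a difference of 0.88.

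The next members in order were owned by non-coding or unclassified transcripts. The peak at Gm44319, annotated as a miRNA (chr2:159069161-159069708), gave 5.83 and 5.96 in wild type against 7.02 and 6.93 in the mutants. C230053D17Rik, a transcript of the class TEC, which awaits experimental support (chr9:121319417-121320100), had 6.80 and 6.50 against 7.88 and 7.58. The long intergenic RNA gene Gm31946 owned a pair of adjacent members on chromosome 13. Its stronger peak (chr13:78426970-78427487) gave 5.88 and 5.76 in wild type against 6.89 and 6.82 in Hox13-/-, and the weaker one had a difference of 0.88.

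Rgs8, a regulator of G protein signalling, gave 5.78 and 5.70 in wild type against 6.85 and 6.63 in the mutants at an internal start (chr1:153665079-153665712). Slc39a12, a zinc transporter gene, gave 5.18 and 5.66 against 6.18 and 6.54, so that its replicates differed by more than those of most members. The remaining members among the 15 were owned by Gm44338, 3110070M22Rik, Gm5463, Gm29538, Gm18988 and Gm47511, with differences between 0.90 and 0.96. Of the 15, 5 were owned by a gene annotated as protein coding and the others by non-coding genes or pseudogenes.

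Most members lay at starts of genes that do not code for protein. A protein-coding gene owned 125 of the 331 members (37.8%), where the owner is the gene of the start site nearest to the midpoint. Among the other promoter peaks the share was 84.4%. ATAC-seq reads carry no strand of transcription, so where several starts lie near a peak the assay does not show which of them it serves. Long intergenic non-coding RNA genes owned 83 members (25.1% against 4.70%), antisense RNA genes 32 (9.67% against 3.65%), pseudogenes 30 (9.06% against 1.67%), TEC transcripts 22 (6.65% against 1.69%) and miRNA genes 16 (4.83% against 0.906%). No coding transcript started within 1 kb of 198 members (59.8%), compared with 11.1% of the other promoter peaks. Seen from the owners, 0.761% of the promoter peaks of coding genes were members, 8.38% of those of long intergenic RNA genes and 8.52% of those of pseudogenes.

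**Figure D2:**
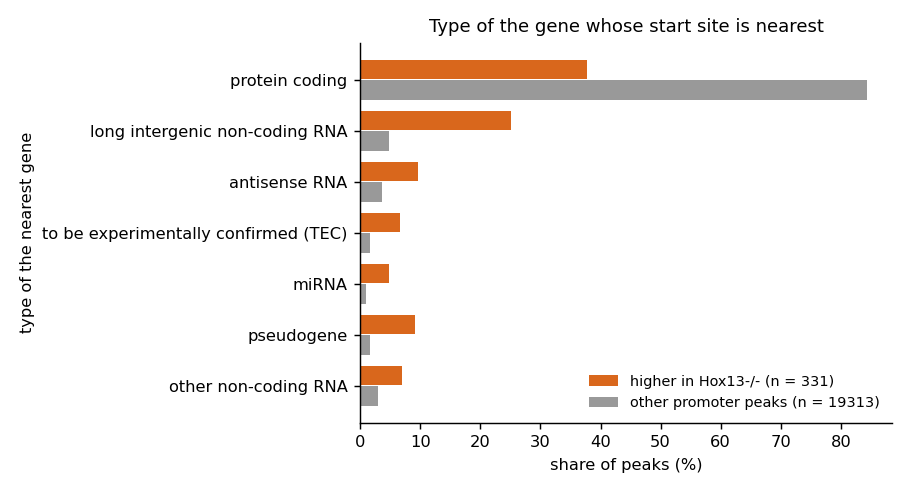
Share of peaks in percent (horizontal axis) by the type of the gene with the nearest start site, for the 331 members (orange) and the 19313 other promoter peaks (grey). Coding genes own 37.8% of the members and 84.4% of the others, and each other class takes a larger share of the members.

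Owners were mostly single and little characterised. The 331 members had 321 owner genes, and 185 members (55.9%) were owned by a gene that carries only a Gm number or a Rik clone name, compared with 15.6% of the other promoter peaks. Starts of more than 1 gene lay within 1 kb of 21 members (6.34% against 21.5%), and starts on both strands within 1 kb of 19 (5.74% against 19.3%). The midpoint lay in an exon in 85 members (25.7% against 45.5%), in an intron in 129 (39.0% against 26.6%) and outside annotated transcripts in 117 (35.3% against 27.9%). A coding gene that had no start within 1 kb spanned 77 members (23.3% against 7.33%). The median distance from midpoint to start was 272 bp in the members and 129 bp in the others. Members were spread over all 19 autosomes, from 0.714% of the promoter peaks of chromosome 11 to 2.88% of those of chromosome 1.

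The 16 members owned by miRNA genes need a separate reading, since the annotation places the start of a miRNA gene at its hairpin and not at the promoter of its precursor. Of these, 9 lay inside a coding gene with no start nearby. The peak beside Mir128-2, in Arpp21, gave 6.44 and 6.46 in wild type against 7.18 and 7.11 in Hox13-/-. The peak beside Mir26a-1, in Ctdspl, gave 6.98 and 7.02 against 7.51 and 7.43. Beside Mir6346, in Gli2, which encodes a transcription factor of the hedgehog pathway, the values were 5.20 and 5.19 against 5.81 and 5.63. The peaks beside Mir135b, in Lemd1, and Mir326, in Arrb1, had differences of 0.59 and 0.44. These examples were chosen after their values were seen.

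In each of 10 genes, a pair of members shared an owner. Besides Gm31946 these were Lmo3, which encodes a LIM-only nuclear cofactor, with differences of 0.70 and 0.78, and Hoxd8 with 0.43 and 0.65. At Rasgef1b, which encodes an exchange factor for Ras-like GTPases, the differences were 0.44 and 0.48. The others were 1700019D03Rik, Gm8113, 1600002D24Rik, Gm13062, Platr19 and Gm37374, with differences between 0.35 and 0.76. Within 10000 bp of another member lay 27 of the 331.

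Several members lay at Hox genes. A start of a Hox gene lay within 1 kb of 35 promoter peaks, and 8 of these (22.9%) were members, beside the 1.68% of all promoter peaks. The family was singled out after its values were seen. Hox genes encode homeodomain factors that set position along the body and limb axes, and in the early limb bud the groups before 13 pattern the proximal segments.

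In HoxD, 5 of 14 promoter peaks were members. The stronger Hoxd8 peak, 40 bp from the start (chr2:74704195-74704956), gave 5.34 and 5.49 in wild type against 6.16 and 5.97 in Hox13-/-, a difference of 0.65. The neighbouring Hoxd8 peak (chr2:74703831-74704136) gave 4.32 and 4.58 against 4.79 and 4.97. A peak shared by Gm28793 and Hoxd9 (chr2:74696818-74697393) gave 5.24 and 5.55 against 5.82 and 5.84. In all 3 peaks the distance between the genotype means was larger than the distance between replicates of either genotype.

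At Hoxd11 the member lay 600 bp from the start (chr2:74681560-74681887), with 5.15 and 4.96 in wild type against 5.48 and 5.41 in the mutants. The Hoxd3 peak, which covers the start (chr2:74711743-74712284), gave 5.66 and 5.87 against 6.18 and 6.11. The main start peaks of Hoxd11 and Hoxd9 and the Hoxd1 peak were also higher in both mutants, with differences of 0.19, 0.21 and 0.32, but fell short of the threshold. At the other end of the cluster the 2 peaks of Hoxd13 were lower in both mutants. The Hoxd13 peak at the start gave 4.06 and 4.17 in wild type against 3.70 and 3.50 in Hox13-/-, a difference of -0.52, and the peak beside it differed by -0.26. Counting every promoter peak from the first Hoxd13 peak to the Hoxd1 peak, 11 of 19 had both mutant values above both wild-type values and 3 had both below.

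In HoxA, 3 of 20 promoter peaks were members, and neighbouring peaks differed in both directions. At Hoxa5 (chr6:52204580-52204900) the values were 4.05 and 3.93 in wild type against 4.33 and 4.50 in Hox13-/-. At Hoxa7 (chr6:52218470-52218895) they were 4.92 and 5.02 against 5.48 and 5.29, and 2 further Hoxa7 peaks were lower in both mutants by 0.26 and 0.18 rLog. At Hoxa10 a member 713 bp from the start (chr6:52241445-52241689) gave 3.93 and 3.75 against 4.31 and 4.19, while the peak at another Hoxa10 start differed by -0.37. The single Hoxa13 promoter peak gave 5.71 and 5.95 in wild type against 5.66 and 5.84 in the mutants, so the genotypes overlapped. Promoter accessibility of the inactivated genes is not a measure of their protein, so these peaks do not check the genotype.

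**Figure D3:**
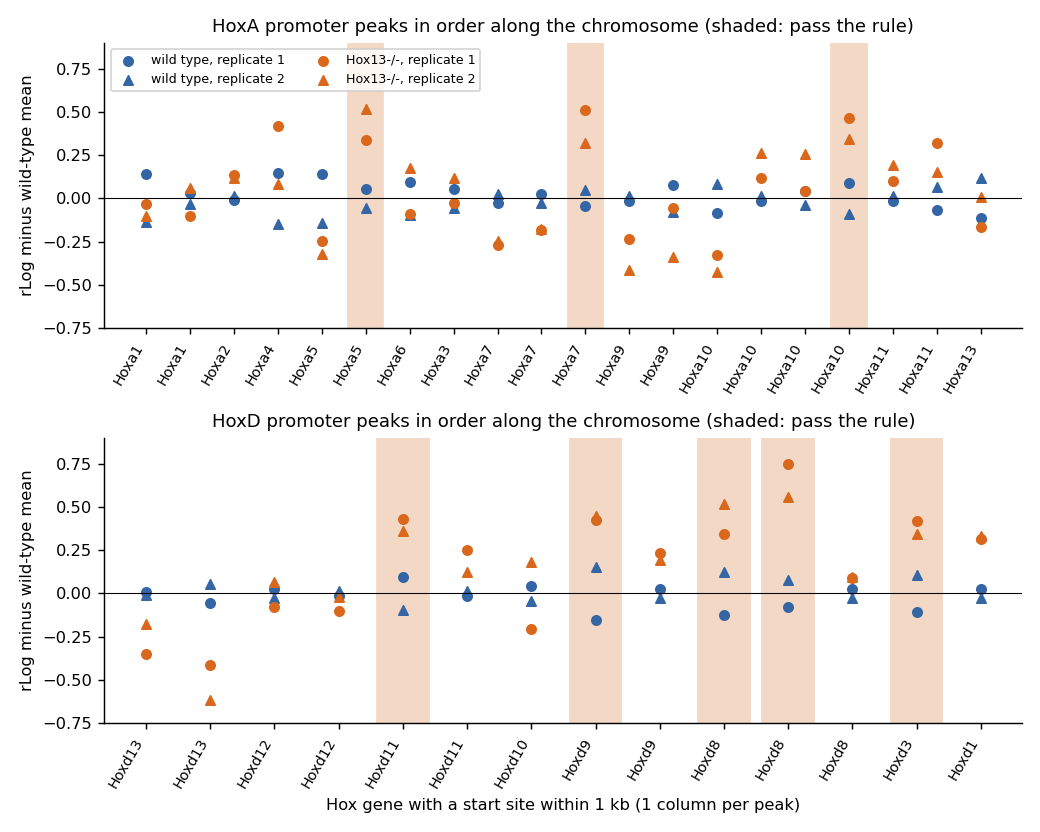
rLog of each library minus the wild-type mean (vertical axis) for the promoter peaks of HoxA (20 peaks, top) and HoxD (14 peaks, bottom) in order along the chromosome. Blue is wild type and orange Hox13-/-, circles and triangles are replicates 1 and 2, and shaded columns pass the rule. Shaded columns lie from Hoxa5 to Hoxa10 and from Hoxd11 to Hoxd3, and both Hoxd13 columns lie below 0 in the mutants.

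The lists of limb genes placed the Hox members in context. In the list for proximal and early limb identity, 18 of 20 genes had a promoter peak and 5 of 29 peaks were members, all of them the Hox peaks of Hoxd11, Hoxd9, Hoxd8 and Hoxa10. These peaks were already counted above, and 1 other peak of the list met the mirrored rule. The median difference of that list was 0.11, against -0.11 over all promoter peaks. Of the 30 promoter peaks of distal limb and digit genes, 0 were members and 3 met the mirrored rule, with a median of -0.10. With 1.68% of all promoter peaks higher and 6.37% lower, both counts lay near the background for a list of this size. Limb signalling genes had 40 promoter peaks and cartilage and joint genes 24, with 0 members in each and medians of -0.11 and 0.05.

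Marker genes of other cell types that a limb bud can hold were counted in the same way. Promoter peaks were present for 5 of 15 muscle precursor genes, 7 of 15 endothelial genes, 3 of 15 blood and macrophage genes and 6 of 15 ectoderm genes. Of the 24 peaks of these 4 lists 0 were members, too few peaks to be read against the background of 1.68%, and the list medians lay between -0.15 and -0.03. Among 12 promoter peaks of nerve and neural crest genes the median difference was -0.14, and 6 peaks were lower and 1 higher in both mutants than in both wild-type libraries. The latter was a member and belonged to Gap43, a protein of growing axons, with 4.27 and 4.14 in wild type against 4.47 and 4.72 in Hox13-/- (chr16:42340414-42340747). Of all 19644 promoter peaks, 8404 were lower and 1969 higher by the same measure, and 12 peaks are too few to be read against them. Immediate early and stress genes had 0 members in 27 promoter peaks, too few peaks to be read against 1.68%, and a median of -0.06. Ribosomal protein genes (80 peaks) and clustered histone genes (61 peaks) also had 0 members, with medians of -0.12 and -0.20.

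Other coding owners are described by examples, picked by their known roles after their values were seen and not a full count of any kind of gene. Among secreted signals and receptors, the largest difference of the examples lay at an internal start of Igf1, the insulin-like growth factor (chr10:87860454-87861155), with 6.66 and 7.02 in wild type against 7.59 and 7.63 in Hox13-/-. Frzb, a secreted Wnt antagonist of early cartilage, had 6.07 and 6.06 against 6.69 and 6.66. At Hgf, the ligand of the Met receptor that guides migrating muscle precursors, the start peak gave 4.83 and 4.89 against 5.28 and 5.19.
An internal start of Il6st, which encodes the shared receptor subunit of the interleukin-6 family, gave 4.26 and 4.24 in wild type against 4.75 and 5.01 in the mutants. Epha3, an ephrin receptor gene, had 5.14 and 5.12 against 5.77 and 5.60. Further examples of this kind were Wnt11, Fgf1, Cxcl5, Il23a, Ddr1 and Itgb5, with differences between 0.36 and 0.53.

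Examples from innate immunity and antigen presentation had differences between 0.38 and 0.72. Nmi, an interferon-inducible adaptor gene, had a start peak of 3.85 and 3.86 in wild type against 4.69 and 4.46 in Hox13-/- (chr2:51972837-51973160). Upstream of Ifit3b, an interferon-induced gene, the values were 6.27 and 6.24 against 6.85 and 6.81, and upstream of its neighbour Ifit3 they were 5.41 and 5.44 against 5.90 and 5.77. H2-Ab1 and H2-T22, which encode histocompatibility chains, and the inflammatory caspase gene Casp4 each had a peak within 76 bp of a start. Ifit3, Ifit3b, H2-Ab1 and H2-T22 belong to gene families with close copies, and how reads that fit several copies were placed was not stated.

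Examples of nuclear regulators outside the Hox family included Nrarp, a feedback inhibitor of Notch signalling, with 5.56 and 5.62 in wild type against 6.21 and 6.33 in Hox13-/-, and Mecom, a zinc finger gene, with 6.13 and 5.94 against 6.54 and 6.67. Internal starts of Rxra, the retinoid X receptor, and Klf13 lay near the threshold with differences of 0.35 each. The matrix genes Smoc2 and Dcn had members upstream of their starts with differences of 0.56 and 0.37.

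A member was often not the strongest promoter peak of its coding gene. Of 120 coding owner genes, 72 had at least 1 further promoter peak that was no member, and in 36 of them the strongest such peak had a higher mean signal than the member. Its difference had a median of -0.05, against 0.45 for the members of the same genes, a contrast that the choice of members in part fixes. Its median GC content was 63.7%, against 52.4% for the members. At Il6st the strongest promoter peak gave 7.97 and 8.02 in wild type against 7.69 and 7.79 in Hox13-/-, lower by 0.26 rLog, whereas the member at the internal start had a difference of 0.63. Fam168a, an example chosen after its values were seen, had a member difference of 0.74 at an internal start. Its strongest promoter peak gave 7.89 and 7.75 in wild type against 7.81 and 7.67 in Hox13-/-. The difference there was -0.08, and the genotypes overlapped.

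Base composition, which the rule did not use, differed between the members and other promoter peaks. Their median GC content was 51.2% (quartiles 47.2% and 55.1%), compared with 63.3% (57.2% and 68.9%) in the others. Of the 331 members, 324 (97.9%, exact binomial 95% interval 95.7% to 99.1%) lay below the median GC content of the other promoter peaks. CpG dinucleotides were at 0.278 of the number that the base content predicts, against 0.758 in the others, and 319 members (96.4%, interval 93.8% to 98.1%) lay below the latter. Peaks near each other share sequence and are not replicates, so these intervals cover counting error only. The 1252 promoter peaks lower in Hox13-/- stood at the other end, with a median GC content of 65.9% and a CpG ratio of 0.806.

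Accessible regions away from start sites are given beside the members. The 6024 peaks over 1 kb from a start that met the same rule had a median GC content of 47.6% and a CpG ratio of 0.220, and the 36286 that did not had 49.3% and 0.259. Both sets were nearer to the members in these measures than the other promoter peaks were. The median peak length was 424 bp in the members, 409 bp in the higher peaks away from start sites, 196 bp in the rest of those and 371 bp in the other promoter peaks. Repeats marked in the reference covered 5.90% of the median member, 5.99% of the median higher peak away from start sites, 0% of the median among the rest of those and 2.17% of the median other promoter peak.

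**Figure D4:**
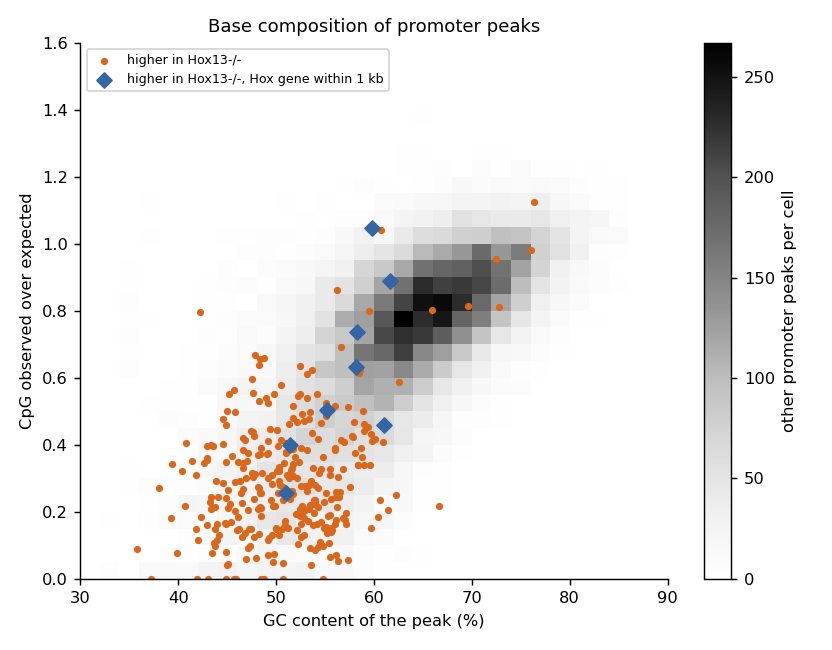
GC content in percent (horizontal axis) and CpG observed over expected (vertical axis) of promoter peaks. Grey cells count the 19313 other promoter peaks, orange points are members and blue diamonds are the 8 members at Hox genes. Members gather around a GC content of 51.2% and a CpG ratio of 0.278, below and to the left of the grey mass around 63.3% and 0.758.

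A minority of members had the composition of CpG islands. A CpG ratio of at least 0.6 together with a GC content of at least 50% was found in 19 members (5.74%) and in 69.9% of the other promoter peaks. The one with the largest difference lay at the divergent start of 3110070M22Rik and Tmem267 (chr13:119488224-119488536), with 5.14 and 5.24 in wild type against 6.17 and 6.12 in Hox13-/- at a GC content of 76.4%. No library of wild type had a called peak there. The Hox peaks of Hoxd8 (both), Hoxa5 and Hoxd3 were among the 19, as were Nmi and Zfp40, with differences of 0.72 and 0.66, and Peg12, an imprinted gene, with 0.39. Zfp40 and Peg12 are examples chosen after their values were seen.

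The share of promoter peaks that met the rule was highest from 45% to 50% GC and fell above that range. It was 7.26% below 45% GC, 8.10% from 45% to 50%, 5.27% from 50% to 55%, 2.1% from 55% to 60% and 0.222% from 60% to 65%, and only 7 members lay above. Peaks away from start sites showed a similar slope at a higher level, with 19.6% from 45% to 50% GC and 2.59% from 60% to 65%. Within narrow ranges of GC content the share was higher where no coding transcript started within 1 kb. From 45% to 50% GC, 13.9% of 453 promoter peaks without a coding start were members, against 4.02% of 646 with one. The shares were 11.9% and 2.82% from 50% to 55%, and 7.35% and 1.30% from 55% to 60%, and above 60% GC only 3 and 14 members remained to compare. The mirrored rule was met by 6.66% of promoter peaks below 45% GC, 4.09% from 45% to 50% and 3.35% from 50% to 55%. At 70% GC and above it was met by 8.61%.

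The genotype difference over all promoter peaks moved with GC content as well. Its median was 0.02 rLog from 45% to 50% GC and -0.14 above 70%, while the median difference between replicates stayed between -0.02 and 0.01 in every GC range in either genotype. When each library's trend on GC content was removed, 358 promoter peaks met the rule, 261 of them members, and 77.4% of these 358 lay below the median GC content of the others.

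**Figure D5:**
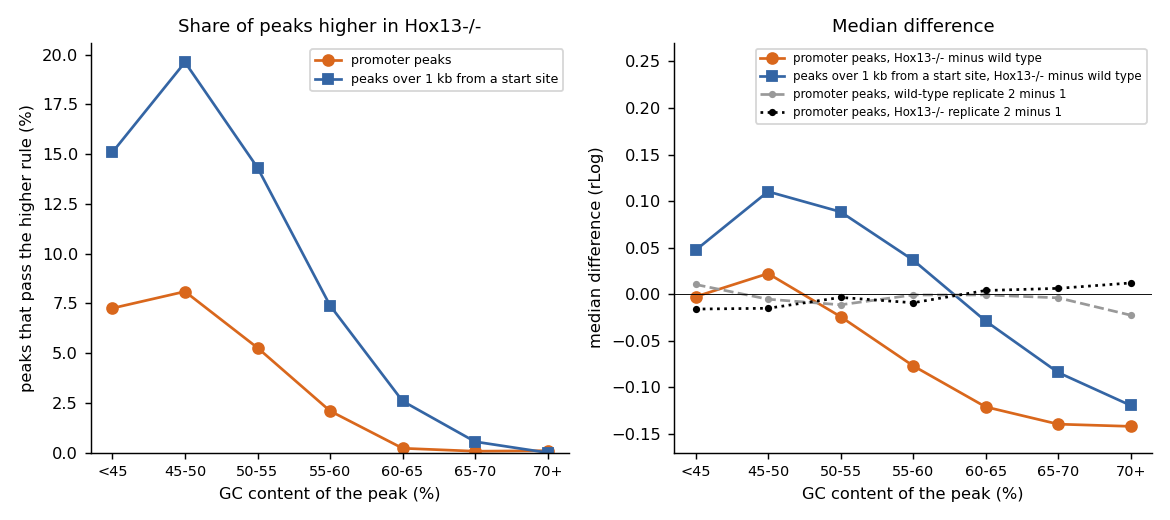
Left, share of peaks that meet the rule for higher accessibility (vertical axis, percent) by GC content of the peak (horizontal axis), for promoter peaks (orange) and peaks over 1 kb from a start (blue). Right, median difference in rLog by GC content between genotypes (orange and blue) and between replicates of a genotype at promoter peaks (dashed and dotted). The share in promoter peaks falls from 8.10% to below 0.3% above 60% GC, and the replicate lines stay near 0.

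Short motifs differed as well. Within 150 bp of the midpoint the letters TAATTA, the core read by many homeodomain proteins, occurred on either strand in 64 members (19.3%), in 2.3% of the other promoter peaks and in 2.59% of all promoter peaks. Among peaks of 45% to 55% GC the shares were 22.1% of 199 members and 7.10% of 2987 others. Higher peaks away from start sites held it in 23.0%, and the rest of those away from start sites in 12.9%. The GC box GGGCGG, read by SP and KLF factors, occurred in 14.8% of members and 59.2% of the others, and within 45% to 55% GC in 9.55% and 19.9%.

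Further motifs were searched in the same windows. CATTCC, read by TEAD factors, was found in 24.2% of members and 11.2% of the others, and in 25.6% and 18.1% within 45% to 55% GC. TGANTCA, the AP-1 site, was found in 8.76% and 3.87%, and in 10.6% and 6.90% within that range. TATAAA was found in 9.97% and 4.77%, but within that range in 9.05% and 11.3%, so its direction turned. CCGGAAGT, an ETS site of many CpG-rich promoters, was found in 0.302% and 4.77%, and in 0.503% and 2.58% within that range. Away from start sites, CATTCC was found in 25.7% of the higher peaks and 22.2% of the rest. There TGANTCA was found in 9.25% and 8.60%, and TATAAA in 15.4% and 19.1%. Letters attributed to HOX13 occurred in few members, but in a larger share of them than of the other promoter peaks. CCAATAAA was found in 7 members (2.11% against 0.549%) and TCGTAAA in 10 (3.02% against 0.658%). Within 45% to 55% GC the shares were 3.52% and 0.971% for CCAATAAA, and 3.02% and 1.10% for TCGTAAA. Away from start sites, CCAATAAA was found in 1.44% of the higher peaks and 2.38% of the rest, so it was not particular to the members. TCGTAAA was found there in 1.49% and 1.36%. In all 16 motifs were searched, and a match of letters is not a measurement of binding.

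Signal level separated the members less clearly than composition did. The mean of the 4 libraries had a median of 5.54 rLog in the members and 5.77 in the other promoter peaks, and 59.2% of members (interval 53.7% to 64.6%) lay below the latter. This share passed to the other side of 50% when the libraries were scaled by cyclic loess (48.3%), when the GC trend was removed (43.0%) and with a threshold of 0.5 (47.7%). The values add up reads over a whole peak, so longer peaks read higher. Set per kb of peak, the median was 6.79 in the members and 7.15 in the others, and 73.1% of members (interval 68.0% to 77.8%) lay below. By genotype, 71.3% of members were below the median of the other promoter peaks in wild type and 46.5% in Hox13-/-, a shift that the rule builds in.

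Members were most frequent at middle signal. They made up 0.652% of the lowest of 4 equal classes of promoter peaks by mean signal, 3.34% of the next, 2.1% of the one above and 0.652% of the highest. In every class the median GC content of the members lay between 49.9% and 52.1%, and that of the others between 60% and 64.6%.

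The strongest members were long peaks. Lgals12, a galectin gene of fat cells, had the highest signal (chr19:7605866-7607497), with 8.29 and 8.27 in wild type against 9.02 and 8.88 in Hox13-/- over 1632 bp. Gm44916, AU015336, Gm38197 and B530045E10Rik followed, with mean signals between 8.15 and 8.42 and differences between 0.64 and 0.78. At the other end stood both peaks of Gm8113, and peaks of Gm45352, 1700019N19Rik and F830002E08Rik, with mean signals between 3.19 and 3.44 and lengths of 142 to 177 bp. In the strongest 5 the genotypes were apart by more than the replicates differed, whereas at Gm8113 one mutant value was 3.28 beside wild-type values of 2.97 and 3.04.

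The peak calls in single libraries followed the values. A peak was called at 95.8% and 98.5% of the members in the mutant libraries and at 44.7% and 26.9% in the wild-type libraries. Both mutant libraries and no wild-type library had a call at 152 members (45.9%, against 2.31% of the other promoter peaks), and all 4 libraries at 77 (23.3% against 57.2%). Calls rest on the same reads as the values, so they are not a second measurement.

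Accessible regions near the members leaned the same way. A peak over 1 kb from a start site lay within 10000 bp of 154 members, and for 42 of these (27.3%) at least 1 such neighbour met the rule for higher accessibility. The share was 10.8% around other promoter peaks and 14.4% around those under 55% GC. The median neighbour difference was 0.15 rLog around members, -0.01 around the other promoter peaks and 0.01 around those under 55% GC. Of all peaks over 1 kb from a start site, 14.2% met the rule. Their median difference was 0.11 rLog from 45% to 50% GC and 0.09 from 50% to 55%. The number of neighbours per peak was not compared between the sets. Neighbours come from the same 4 libraries, so this too is a description of those embryos.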

How the data were processed

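ATAC-seq libraries of E11.5 distal forelimb buds were compared between wild type and Hox13-/-, 2 libraries each. The 2 proximal libraries were not analysed here. The authors aligned 50 bp read pairs to mm10 with Bowtie2 2.3.1, called peaks per library with MACS2 2.1.1.20160309 against an input, merged them and counted reads with HOMER 4.9.1, and deposited rLog values, on a log2 scale, made by DESeq2. SAMtools 1.4.1 is also in the submitters' processing notes. Treatment of duplicate reads and of the transposase offset is not given in the sources used here. rLog draws low counts together, which understates differences of weak peaks, and the table holds no read counts per peak, so the counting error of a peak cannot be computed from it. Sequencing totals of the libraries are given by the study and were not used here. The deposited fold changes and p-values were not used.

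Start sites came from GENCODE M21 basic transcripts and peak sequence from GRCm38. Limma 3.58.1 in R 4.3.3, with a variance trend, was fitted to all 61954 peaks, with genotype as the only term and Benjamini-Hochberg adjustment, after it was tested on simulated data. With 2 against 2, an exact permutation test of a single peak cannot go below p = 0.333. CpG observed over expected is the CpG number times the length over the product of C and G numbers. The members, gene lists and motifs were chosen with earlier results of these data known. Peaks named are the 15 largest differences, members of the lists, the 3 on either side of the threshold, the 5 strongest and 5 weakest, the promoter peaks of Hoxa13 and Hoxd13, and owners of several members, and any other is given as chosen after its values were seen. Alternatives were other scalings, a GC correction (loess, span 0.3), thresholds of 0.25 and 0.5, distances of 500 and 2000 bp, coding transcripts only, stronger peaks only, a replicate block, and leaving out each library.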

Additional observations from a re-analysis of the deposited data

How the results depend on the processing

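The count of 331 members stayed between 273 and 460 under the 3 scalings, the GC correction, omission of any 1 library and the comprehensive transcript set, which was added after the data were seen. It was 618 and 149 with thresholds of 0.25 and 0.5, 220 and 549 with start sites within 500 and 2000 bp, 133 with protein-coding transcripts only, and 135 when restricted to promoter peaks of at least median signal. The share of members below the median GC content of other promoter peaks (97.9%) was 77.4% after GC correction, 93.2% and 99.3% with thresholds of 0.25 and 0.5, and 92.8% to 94.9% when 1 library was left out. The share below the median signal (59.2%) was 48.3% with cyclic loess scaling, 43.0% after GC correction, 64.9% and 47.7% with thresholds of 0.25 and 0.5, 68.6% and 52.3% with 500 and 2000 bp, 76.3% in the stronger peaks, and 56.8% to 68.5% when 1 library was left out. Limma's count of higher promoter peaks (365) was 231 without Hox13-/- replicate 1 and 231 to 273 over the 4 omissions, each with 1 library left in an arm whose spread was taken from the other genotype. The causes of these shifts were not tested.

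The values showed no sign of pairing by replicate number, though with 2 pairs they cannot settle whether same-numbered libraries were prepared together. The correlation of the deviations of same-numbered libraries from their group means was -0.0106. A replicate block gave 364 higher promoter peaks, and with the GC correction 421. Without read counts per peak, the counting error of a single weak peak could not be given.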
